A study of Mus musculus with 10 samples.

Results

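The genes of the mitochondrial respiratory chain and ATP synthase were followed in whole lung of mice kept in normoxia or in intermittent hypoxia. Members were taken by symbol: names starting with Nduf, Uqcr or Atp5, Sdha to Sdhd, Cyc1, Cycs, and names starting with Cox4 to Cox8, on probe sets that the array annotation assigns to a single symbol. This gave 86 of 12393 named genes, from 160 probe sets, and where a gene had several probe sets the brightest one, averaged across the 10 arrays, was read. By complex they were 38 genes of complex I (5 of them assembly factors), 4 of complex II, 9 of complex III, cytochrome c, 17 of complex IV and 17 of complex V. Ndufa4 was counted with complex IV, where its protein is now placed, although it was named as a complex I subunit. All 10 animals were male C57BL/6 mice aged 6 to 8 weeks with no allele or agent named in the labels, 5 in normoxia and 5 in intermittent hypoxia, and total RNA of each whole lung went to its own Affymetrix Mouse Genome 430A 2.0 array. The oxygen levels, the cycle length and the time for which the mice were exposed are not given in the sources used here. By its title the series concerns alveolar surface area in adult mice under chronic intermittent hypoxia, and the comparison below asks what the same exposure did to these transcripts.

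Complex I (NADH dehydrogenase) and complex II (succinate dehydrogenase) pass electrons to ubiquinone, complex III passes them on to cytochrome c, and complex IV (cytochrome c oxidase) passes them to oxygen. Complexes I, III and IV pump protons across the inner mitochondrial membrane, and complex V (ATP synthase) makes ATP as the protons flow back. The genes followed here are nuclear, and mitochondrial DNA encodes further core subunits that the symbol rule does not take. Several complex IV subunits come as isoform pairs, with one form found in most tissues and another in heart and skeletal muscle, lung or testis. In lung the chain serves alveolar epithelium, endothelium, airway and immune cells alike, so whole-lung RNA averages over all of them. In such a bulk sample fewer cells of a type and less RNA per cell cannot be told apart.

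Promoter windows are shown for Ndufb6, Atp5e and Ndufs4, the members past the test whose groups did not overlap. Sdhd is shown as an example of the members, Uqcr11 among them, whose windows match 2 or more of the motifs searched. The windows shown come from RefSeq (GRCm38.p6) and run 5′ to 3′ on the gene's own strand, which is minus for all 4. They cover 250 bases before to 50 bases after the annotated start. Capitals mark motif matches.
Ndufb6, chr4:40279372-40279671: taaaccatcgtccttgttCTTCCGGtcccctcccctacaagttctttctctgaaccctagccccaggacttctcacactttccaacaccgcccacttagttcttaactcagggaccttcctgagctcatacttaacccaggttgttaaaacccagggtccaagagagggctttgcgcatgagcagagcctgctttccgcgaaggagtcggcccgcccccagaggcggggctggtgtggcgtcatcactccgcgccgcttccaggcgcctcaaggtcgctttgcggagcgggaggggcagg
Atp5e, chr2:174464052-174464351: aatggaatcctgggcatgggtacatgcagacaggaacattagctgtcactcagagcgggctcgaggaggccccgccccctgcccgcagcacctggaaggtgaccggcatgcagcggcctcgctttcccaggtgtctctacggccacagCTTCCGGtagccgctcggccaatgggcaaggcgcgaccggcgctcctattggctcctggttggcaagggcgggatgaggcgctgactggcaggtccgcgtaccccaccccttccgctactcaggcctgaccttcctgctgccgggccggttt
Ndufs4, chr13:114388045-114388344: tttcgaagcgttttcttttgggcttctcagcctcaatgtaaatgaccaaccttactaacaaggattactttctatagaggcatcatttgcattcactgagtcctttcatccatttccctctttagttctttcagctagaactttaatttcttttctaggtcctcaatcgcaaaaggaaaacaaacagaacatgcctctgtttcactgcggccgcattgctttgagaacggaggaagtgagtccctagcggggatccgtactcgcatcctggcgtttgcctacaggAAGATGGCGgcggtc
Sdhd, chr9:50603800-50604099: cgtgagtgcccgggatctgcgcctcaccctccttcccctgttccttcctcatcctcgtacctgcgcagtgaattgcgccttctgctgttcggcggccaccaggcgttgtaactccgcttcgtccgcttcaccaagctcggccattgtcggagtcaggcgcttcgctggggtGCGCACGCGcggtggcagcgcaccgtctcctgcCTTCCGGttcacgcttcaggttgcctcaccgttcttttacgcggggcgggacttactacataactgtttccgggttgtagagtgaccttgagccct
In Ndufb6 and Atp5e the capitals are the reverse complement of CCGGAAG, the core bound by ETS factors such as GABPA, at -232 to -226 and at -102 to -96 from the start. In Ndufs4 they are AAGATGGCG, the core bound by YY1, at 36 to 44. In Sdhd they are GCGCANGCG, the core bound by nuclear respiratory factor NRF1, at -79 to -71, and the ETS core at -46 to -40, so the matches do not overlap. A window was found for 71 of the 86 members, and both strands were searched. A gene was counted once if any of its windows held a match. NRF1 matches lay in 20 of the 71 (28.2%, against 7.03% of all 27025 genes with a window), ETS matches in 18 (25.4% against 9.93%) and YY1 matches in 6 (8.45% against 1.64%). The 27025 genes were not limited to those measured on the arrays and were not matched to the members by level. The letters ACGTG, the core of the hypoxia response element, lay in 20 (28.2% against 21.8%). A match is a description of letters and does not show binding.

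The arrays were first compared as a whole. Their medians lay between 7.69 and 7.727, but their standard deviations were 1.932, 1.893 and 1.917 on normoxia arrays 2, 3 and 4, against 2.004 and 2.015 on normoxia arrays 1 and 5 and 1.985 to 2.048 in hypoxia. Lung markers were high on all arrays (mean level of 15 genes 11.71 to 11.98 in normoxia and 11.88 to 12.08 in hypoxia), and 1 of them, the macrophage receptor Marco, lay below the lower quartile of all probe sets. Of the 15, 3 rose, Ptprc, Aqp5 and Col1a2, against 8.93% of all genes, with values given at the end. Normoxia array 2 stood apart by skeletal muscle transcripts. The mean of 16 skeletal muscle markers was 9.84 there, against 6.51 to 6.7 on the other normoxia arrays and 6.28 to 6.54 in hypoxia, and Myh1, a fast myosin heavy chain, read 12.12 against 4.76 to 5.18. The mean of 16 cardiac markers was 9.03 on hypoxia array 4 and 9.46 to 9.74 on the other arrays. The counts, the medians by complex and the members that follow these arrays are given below with and without them. Without hypoxia array 4 the medians were 0.15, 0.23, 0.17, 0.07 and 0.19 for complexes I, II, III, IV and V, and 0.16 over all members, against 0.13, 0.20, 0.13, 0.04, 0.18 and 0.13 with it.

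Of the 86 genes, 5 rose in intermittent hypoxia and 0 fell at an adjusted p below 0.05 (limma, two-sided, Benjamini-Hochberg over all probe sets). The 5 were the complex I subunits Ndufs4, Ndufb5 and Ndufb6 and the ATP synthase subunits Atp5a1 and Atp5e, with differences of 0.27 to 0.47 on the log2 scale. Over all 12393 genes the same test called 8.93% higher and 3.6% lower, so 5 of 86 (5.81%) is below the background share. At an unadjusted p below 0.05, 23 members were higher and 2 lower in limma, against 19.9% and 12.7% of all genes. SAM, the permutation method that the design text names, called 18 members higher (20.9%) and 1 lower at a q below 0.05, against 17.6% and 10.7% of all genes. In 4 members, Ndufs4, Ndufb6, Atp5e and the complex I assembly factor Ndufaf3, every hypoxia array read above every normoxia array, and in 0 members every one read below, against 5.76% and 2.85% of all genes. The count of members called higher was 2 without normoxia array 2, 1 without normoxia array 3 and 0 without normoxia array 4, where 4.39%, 3.74% and 3.36% of all genes were called higher. It was 2, 1, 1 and 2 without hypoxia arrays 1 to 4 in turn, against 4.27%, 4.28%, 4.69% and 5.91% of all genes. It was 8 without hypoxia array 5 (9.3% of members against 9.72% of all genes) and 9 without normoxia array 1 (10.5% against 11.1%). Without normoxia array 5 it was 19, and the members' share of 22.1% was then above that of all genes, 14.2%.

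Single genes moved little, but most leaned the same way: 76 of 86 differences were above 0 and 10 below, with a median of 0.13 and a range from -0.24 to 0.47. Among all genes the median was 0.01. The direction of the member median depended on the scaling, since it was -0.01 after quantile normalization, with 41 differences above 0 and 45 below, and 0.03 after the arrays were centred and set to equal spread, with 50 above 0. Quantile normalization left 1 member called higher, Ndufb6, and 1 called lower, Cox8c, against 5.81% and 4.77% of all genes. Equal spread left 3 called higher, Ndufb5, Ndufb6 and Atp5e, and 1 lower, Cox8c, against 7.17% and 4.39%. Without normoxia arrays 2, 3 and 4 together the member median was 0.01 and 0 members were called.

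**Figure D1:**
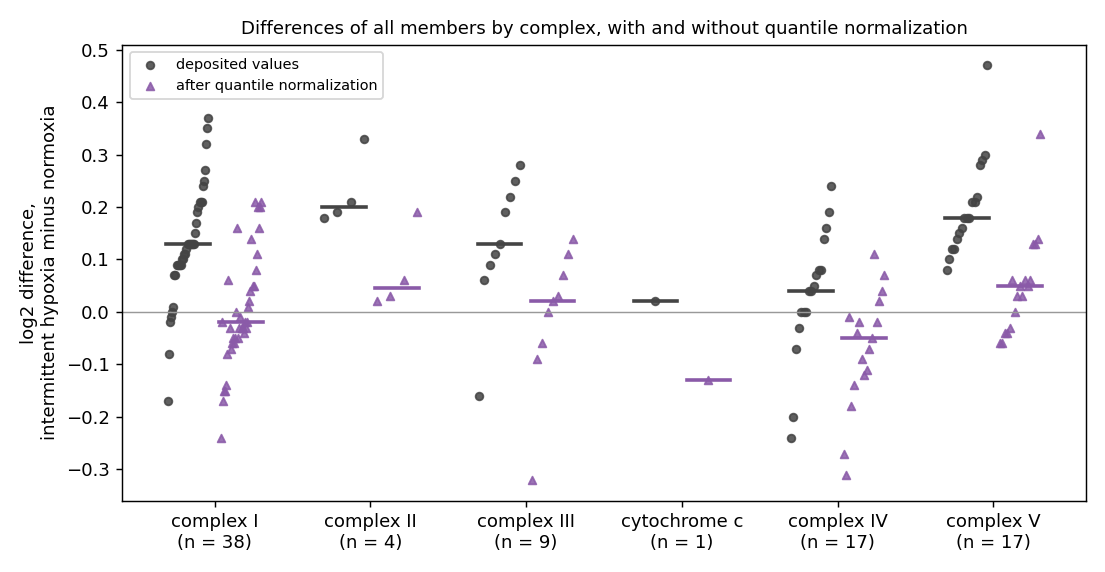
Log2 difference, intermittent hypoxia minus normoxia, of each of the 86 genes by complex. Each point is a gene and each bar the median of its complex, in black for the deposited values and in purple after quantile normalization. All 17 complex V points are above 0 in the deposited values, and the medians of complexes I and IV and cytochrome c lie below 0 after quantile normalization.

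Abundant transcripts in general leaned the same way. With all genes split into 10 bins by mean level over the arrays, the median difference ran from -0.07 in bins 2 and 3 to 0.15 in bins 9 and 10, and after quantile normalization from -0.04 to 0. Of the 86 members 69 lay in the upper 2 bins, with a median of 0.13 and 94.2% of differences above 0. The 2410 other genes of these bins had a median of 0.15 with 79.4% above 0. In these bins 5.8% of members were called higher, against 19.1% of the other genes. Of all 86 members 42 lay above the median of their own bin.

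**Figure D2:**
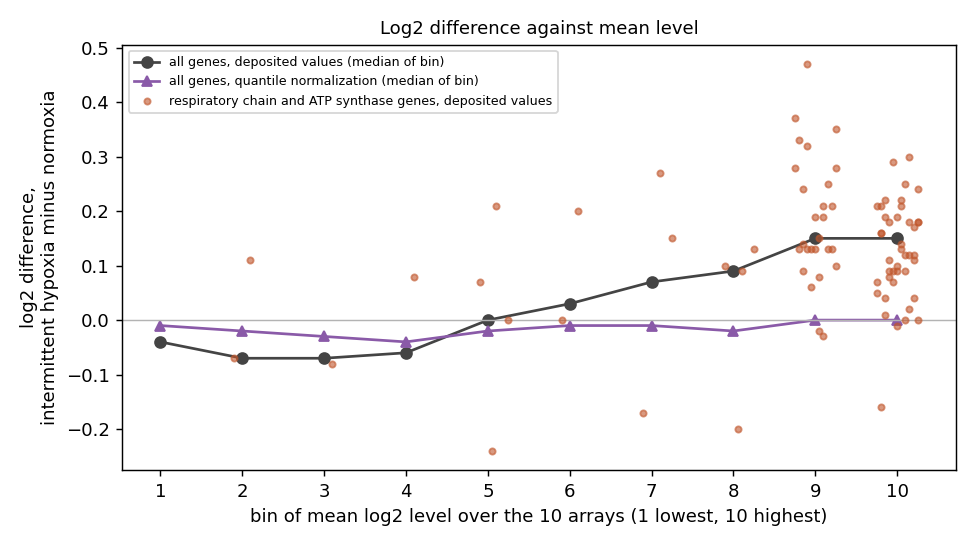
Median log2 difference of all genes in 10 bins of mean log2 level, for the deposited values (black) and after quantile normalization (purple), with each respiratory chain or ATP synthase gene as an orange point placed in its bin. The black line falls from -0.04 in bin 1 to -0.07 in bins 2 and 3 and then climbs to 0.15 in bins 9 and 10. Most orange points sit in bins 9 and 10, on both sides of the black line.

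The mean of the members on each array, after each gene was centred on its mean over the arrays, was 0.01, -0.02, -0.22, -0.18 and 0.09 in normoxia and 0.08, 0.19, 0.09, -0.01 and -0.02 in hypoxia. Normoxia arrays 3 and 4 were the low ones and hypoxia array 2 the high one, and the groups overlapped. Normoxia array 3 gave the lowest reading of 49 members and normoxia array 4 of another 20, while hypoxia array 2 gave the highest reading of 49. The other genes of the upper 2 bins had means of 0.04, -0.1, -0.21, -0.16 and 0.06 in normoxia and 0.07, 0.16, 0.09, 0.04 and 0 in hypoxia. After quantile normalization the member means lay between -0.06 and 0.06, and normoxia array 2, the array with skeletal muscle transcripts, gave the highest reading of 28 members.

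**Figure D3:**
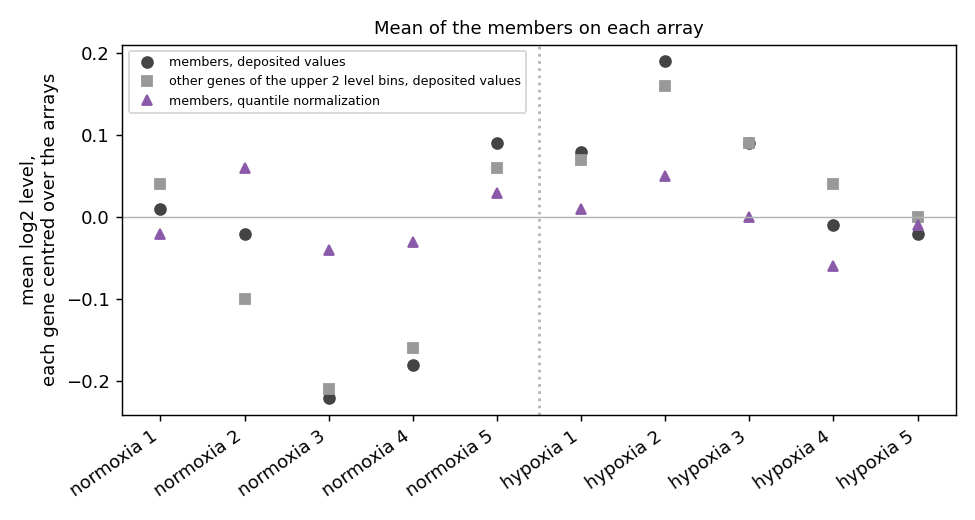
Mean log2 level of the 86 members on each array, each gene centred over the arrays, with the other genes of the upper 2 level bins (grey squares) and the members after quantile normalization (purple triangles). Black points and grey squares are lowest on normoxia arrays 3 and 4 and highest on hypoxia array 2, and the purple triangles stay within 0.06 of 0.

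Complex I, with 38 of the 86 members, held 3 of the 5 genes that rose, where 8.93% of all genes were called higher. Of its 38 genes 34 had a difference above 0, with a median of 0.13 that became -0.02 after quantile normalization and 0.14 without normoxia array 2. Ndufb6, an accessory subunit of the membrane arm, read 10.15, 10.05, 9.88, 9.94 and 10.21 in normoxia and 10.49, 10.46, 10.43, 10.34 and 10.24 in hypoxia. Every hypoxia array was above every normoxia array. The difference was 0.35 (SE 0.08, n = 5 per group, 1.27-fold, limma adjusted p = 0.0173), and it was 0.20 after quantile normalization (limma adjusted p = 0.035). Of the arrays left out one at a time, normoxia array 4 alone ended this call (0.32, limma adjusted p = 0.0529). A second probe set of the gene gave 0.13 (SE 0.09, limma adjusted p = 0.353).

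Ndufb5, another membrane-arm subunit, read 10.39, 10.11, 10.16, 10.17 and 10.41 in normoxia and 10.57, 10.63, 10.76, 10.51 and 10.37 in hypoxia. The groups overlapped through hypoxia array 5, which lay below normoxia arrays 1 and 5. The difference was 0.32 (SE 0.09, 1.25-fold, limma adjusted p = 0.0337). The call was lost after quantile normalization (0.16, adjusted p = 0.111) and without any single one of normoxia arrays 2, 3 and 4 or hypoxia arrays 1 to 4, where the difference was 0.27 to 0.33 and the adjusted p 0.0531 to 0.0855.

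Ndufs4, an accessory subunit of the matrix arm whose loss causes complex I deficiency in mice and people, read 8.81, 8.8, 8.54, 8.67 and 8.81 in normoxia and 8.85, 9.16, 9.05, 8.92 and 8.97 in hypoxia. The groups did not overlap, although hypoxia array 1 and the highest normoxia arrays were close. The difference was 0.27 (SE 0.08, 1.2-fold, limma adjusted p = 0.0431). The call was lost after quantile normalization (0.20, adjusted p = 0.071) and without any single one of normoxia arrays 2, 3 and 4 or hypoxia arrays 2 to 5, where the difference was 0.22 to 0.29 and the adjusted p 0.0577 to 0.107. Its other 2 probe sets gave -0.14 (SE 0.08) and 0.00 (SE 0.08), so that the mean over the gene's probe sets was 0.04 (adjusted p = 0.614).

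Ndufb2, also of the membrane arm, read 10.6, 10.51, 10.32, 10.21 and 10.71 in normoxia and 10.83, 11.13, 10.87, 10.76 and 10.58 in hypoxia. Here hypoxia array 5 fell within the normoxia values and the other hypoxia arrays were above them. Its difference of 0.37 was the largest of complex I in size but missed the threshold (SE 0.11, limma adjusted p = 0.0505). It passed without normoxia array 1 (0.40, adjusted p = 0.0442), normoxia array 5 (0.43, adjusted p = 0.0212) or hypoxia array 5 (0.43, adjusted p = 0.0283). A second probe set did pass, at 0.48 (SE 0.11, limma adjusted p = 0.0171), also after quantile normalization (0.39, adjusted p = 0.021). The suffix of its name marks that probe set as one that may cross-hybridise.

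By role, 6 genes were core subunits of the matrix arm, most of which carry flavin or iron-sulfur clusters (Ndufs1, Ndufs3, Ndufs7, Ndufs8, Ndufv1, Ndufv2). They had differences of 0.09 to 0.25 and 0 calls in limma on the probe sets used. Of these, 2 were higher at an unadjusted p below 0.05 (19.9% of all genes), Ndufs3 at 0.21 and Ndufs8 at 0.25. SAM called 1, Ndufs3 (17.6% of all genes). The 10 Ndufb subunits of the membrane arm ran from 0.07 to 0.37 with 2 calls, where 8.93% of all genes were called higher. The 12 Ndufa subunits, Ndufab1 included, ran from -0.01 to 0.21, with 0 calls in limma, 0 at an unadjusted p below 0.05 and 0 in SAM. Ndufs5 and Ndufv3 were at -0.02 and 0.00. The 5 Ndufaf assembly factors, which build the complex but are not part of it, ran from -0.17 to 0.21. In this class Ndufaf4 was at -0.17 (SE 0.10, limma adjusted p = 0.248) and Ndufaf3, whose groups did not overlap, at 0.20 (SE 0.07, limma adjusted p = 0.0728).

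**Figure D4:**
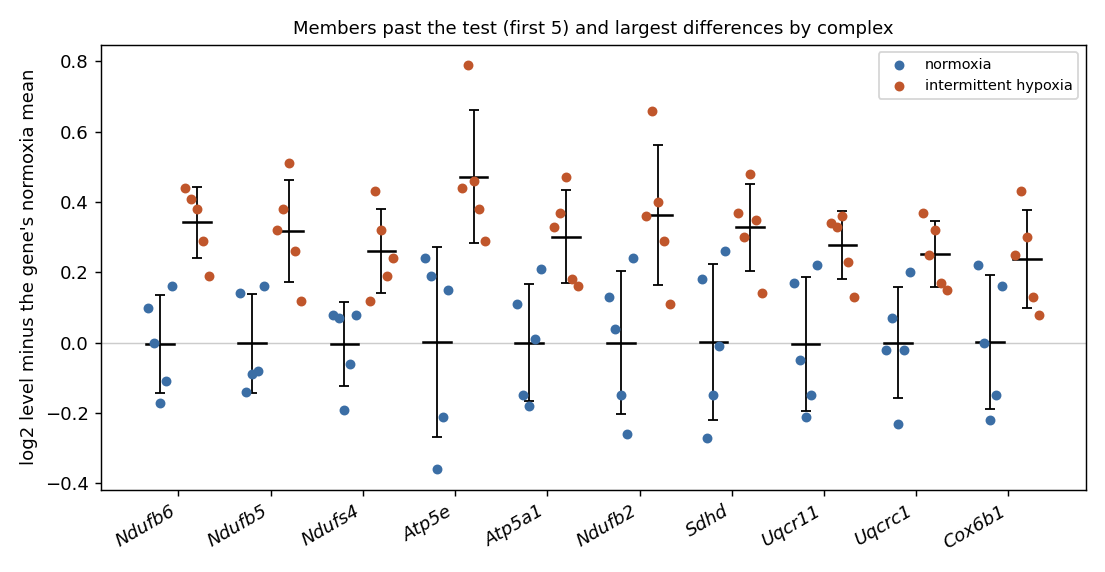
Log2 level on each array minus the gene's normoxia mean, for the 5 members past the test and 5 others with large differences in their complex. Points are arrays (blue normoxia, orange hypoxia, 5 each, in order of array number), horizontal bars are group means and error bars SD. The orange points of Ndufb6, Ndufs4 and Atp5e lie wholly above the blue ones, and those of the other 7 genes overlap them.

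In complex II, which also belongs to the citric acid cycle, all 4 differences were above 0, with a median of 0.20 that became 0.05 after quantile normalization and 0.21 without normoxia array 2, and limma called 0 of the 4, against 3 higher at an unadjusted p below 0.05 (19.9% of all genes) and 2 in SAM (17.6% of all genes). Sdhd, a membrane anchor subunit, read 9.91, 9.46, 9.58, 9.72 and 9.99 in normoxia and 10.1, 10.03, 10.21, 10.08 and 9.87 in hypoxia. Hypoxia array 5 alone lay within the normoxia range. Its difference was 0.33 (SE 0.10, limma adjusted p = 0.055), and it passed without normoxia array 1 (0.37, adjusted p = 0.0369), normoxia array 5 (0.39, adjusted p = 0.0179) or hypoxia array 5 (0.37, adjusted p = 0.0388). Sdhb, the iron-sulfur subunit, read 10.45, 10.43, 10, 9.97 and 10.36 in normoxia and 10.51, 10.64, 10.54, 10.29 and 10.3 in hypoxia. Normoxia arrays 3 and 4 were low and the other normoxia arrays lay among the hypoxia ones (difference 0.21, SE 0.11, limma adjusted p = 0.206). The flavoprotein Sdha and the anchor Sdhc were at 0.18 and 0.19, both with an unadjusted p below 0.05.

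Complex III had 8 of 9 differences above 0, with a median of 0.13 that became 0.02 after quantile normalization and 0.14 without normoxia array 2, and limma called 0 of the 9, against 4 higher and 1 lower at an unadjusted p below 0.05 (19.9% and 12.7% of all genes) and 3 higher in SAM (17.6% of all genes). Uqcr11, a small accessory subunit, read 10.06, 9.84, 9.68, 9.74 and 10.11 in normoxia and 10.23, 10.22, 10.25, 10.12 and 10.02 in hypoxia. All but hypoxia array 5 were above the normoxia values (difference 0.28, SE 0.09, limma adjusted p = 0.0582). It passed without normoxia array 1 (0.33, adjusted p = 0.036), normoxia array 5 (0.34, adjusted p = 0.0191) or hypoxia array 5 (0.32, adjusted p = 0.0464). Uqcrc1, a core protein, read 9.94, 10.03, 9.73, 9.94 and 10.16 in normoxia and 10.33, 10.21, 10.28, 10.13 and 10.11 in hypoxia. The groups overlapped through normoxia array 5 (difference 0.25, SE 0.08, limma adjusted p = 0.0608), and it passed without that array (0.30, adjusted p = 0.0202). The redox subunits Uqcrfs1, the Rieske protein, and Cyc1, cytochrome c1, were at 0.22 and 0.19. Uqcr10 had the one negative difference, -0.16 (SE 0.07, limma adjusted p = 0.151), and its other 2 probe sets gave -0.04 and -0.19.

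Cycs, somatic cytochrome c, read 11.55, 11.57, 11.56, 11.34 and 11.39 in normoxia and 11.49, 11.61, 11.52, 11.5 and 11.41 in hypoxia. The groups overlapped almost wholly. The difference was 0.02 (SE 0.07, limma adjusted p = 0.828), and it became -0.13 after quantile normalization (adjusted p = 0.271) and -0.11 at equal spread (adjusted p = 0.355).

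Complex IV, the oxygen-consuming step, had the smallest median of the 5 complexes, 0.04, which turned to -0.05 after quantile normalization and -0.09 at equal spread and was 0.06 without normoxia array 2. Of its 17 genes 12 had a difference above 0 and 5 below, and limma called 0. At an unadjusted p below 0.05 in limma Cox6b1 was higher and Cox8c lower, against 19.9% and 12.7% of all genes. SAM called 1, Cox8c, lower, against 10.7% of all genes. Cox4i1, the main isoform of subunit 4, read 12.61, 12.49, 12.4, 12.37 and 12.6 in normoxia and 12.52, 12.79, 12.54, 12.47 and 12.51 in hypoxia. Hypoxia array 2 was the high one and the rest of the hypoxia arrays lay within the normoxia range. Its difference was 0.07 (SE 0.08, limma adjusted p = 0.55), and its direction turned after quantile normalization (-0.07) and at equal spread (-0.10).

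Cox4i2, the subunit 4 isoform expressed in lung and described as hypoxia-inducible, read 8.26, 8.36, 8.45, 8.34 and 8.41 in normoxia and 8.3, 8.4, 8.36, 8.43 and 8.34 in hypoxia. Neither group stood above the other. The difference was 0.00 (SE 0.06, limma adjusted p = 0.967), and between -0.02 and 0.03 with any one array left out. Ndufa4l2, a hypoxia-inducible relative of Ndufa4, was not analysed here. Ndufa4 read 10.89, 10.6, 10.74, 10.77 and 11.18 in normoxia and 10.91, 11.15, 11.14, 10.95 and 10.86 in hypoxia. Normoxia array 5 was the highest of all 10 (difference 0.16, SE 0.10, limma adjusted p = 0.291).

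The other ubiquitous isoforms also overlapped between the groups. Cox6b1, with the largest positive difference in complex IV, read 12.26, 12.04, 11.82, 11.89 and 12.2 in normoxia and 12.29, 12.47, 12.34, 12.17 and 12.12 in hypoxia (0.24, SE 0.10, limma adjusted p = 0.117). Its low readings were again normoxia arrays 3 and 4. Cox6a1 read 12.82, 12.87, 12.5, 12.56 and 12.94 in normoxia and 12.88, 12.96, 12.75, 12.79 and 12.73 in hypoxia (0.08, SE 0.09, limma adjusted p = 0.552, with the sign turned to -0.05 after quantile normalization and -0.09 at equal spread). Cox7a2 read 12.68, 12.72, 12.52, 12.48 and 12.73 in normoxia and 12.67, 12.84, 12.71, 12.57 and 12.51 in hypoxia (0.04, SE 0.08, limma adjusted p = 0.785, with the sign turned to -0.09 and -0.14 by the same scalings). The lowest readings of Cox6a1 were normoxia arrays 3 and 4, those of Cox7a2 normoxia array 4 and hypoxia array 5, and the groups overlapped in both genes. Cox8a read 11.82, 11.51, 11.7, 11.62 and 12.03 in normoxia and 11.91, 11.98, 12.07, 11.85 and 11.83 in hypoxia (0.19, SE 0.09, limma adjusted p = 0.174), and passed without normoxia array 5 (0.27, adjusted p = 0.033). The probe set that stood for Cox7c read 5.57 to 6.06, in the second lowest level bin, and its difference was -0.07 (SE 0.10, limma adjusted p = 0.679).

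Of the isoforms named for heart and skeletal muscle, Cox6a2 and Cox8b had their lowest reading on hypoxia array 4, and Cox7a1 on normoxia array 4. Cox6a2 read 10.22, 10.49, 10.56, 10.12 and 10.27 in normoxia and 10.42, 10.38, 10.42, 9.93 and 10.37 in hypoxia. Hypoxia array 4, where the cardiac markers were also lowest, was the low one. The difference was -0.03 (SE 0.11, limma adjusted p = 0.884), 0.07 without hypoxia array 4 and 0.01 without normoxia array 2. Cox8b read 7.97, 8.49, 8.23, 7.88 and 8.27 in normoxia and 8.21, 7.87, 7.93, 7.6 and 8.01 in hypoxia. Its highest reading was on normoxia array 2, with the skeletal muscle transcripts, and its lowest on hypoxia array 4. The difference was -0.24 (SE 0.13, limma adjusted p = 0.21), and -0.16 both without normoxia array 2 (adjusted p = 0.418) and without hypoxia array 4 (adjusted p = 0.406). Cox7a1 read 6.91, 7.2, 7.03, 6.74 and 7.04 in normoxia and 6.75, 7.34, 7.19, 6.79 and 7.25 in hypoxia, with neither group apart (0.08, SE 0.12, limma adjusted p = 0.69). The part of muscle transcripts in these values was not tested.

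**Figure D5:**
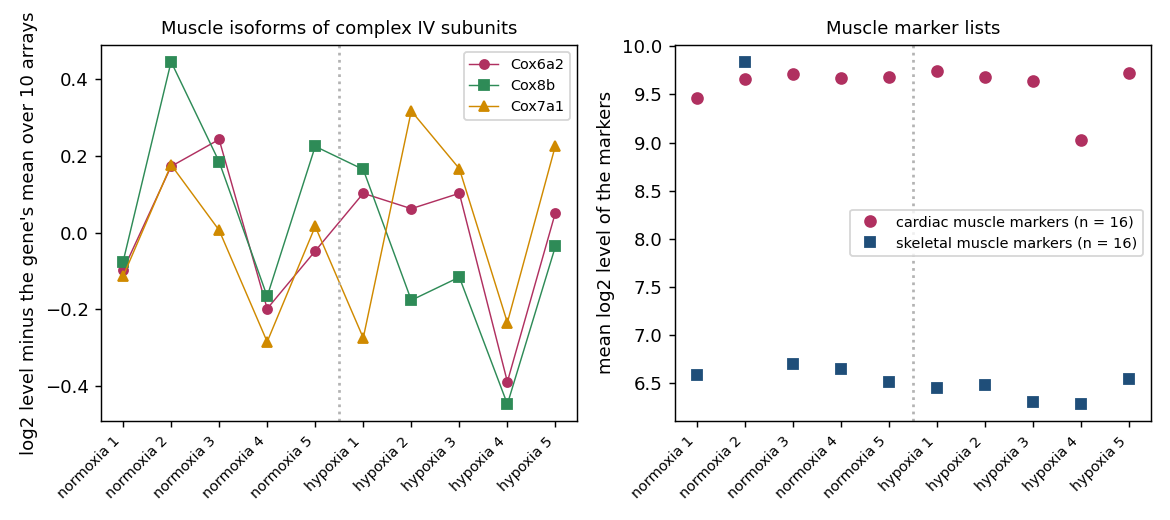
Left, log2 level of the complex IV muscle isoforms Cox6a2, Cox8b and Cox7a1 on each array minus the gene's mean over 10 arrays. Right, mean log2 level of 16 cardiac and 16 skeletal muscle markers on the same arrays. Cox6a2 and Cox8b are lowest on hypoxia array 4, where the cardiac marker mean is 9.03, and the skeletal marker mean reaches 9.84 on normoxia array 2.

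The isoforms named for testis were Cox6b2 and Cox8c. Cox6b2 read 7.97, 7.81, 7.85, 8.17 and 8.14 in normoxia and 7.78, 8.16, 8.24, 8.13 and 7.64 in hypoxia (0.00, SE 0.12, limma adjusted p = 0.996), with both extremes in hypoxia. Cox8c, chosen here after its values were seen because several alternatives called it, read 9.57, 9.62, 9.7, 9.54 and 9.63 in normoxia and 9.57, 9.42, 9.38, 9.31 and 9.37 in hypoxia. Hypoxia array 1 lay among the normoxia values and the other hypoxia arrays below all of them. Its difference of -0.20 missed the threshold (SE 0.06, limma adjusted p = 0.0591) and passed after quantile normalization (-0.31, adjusted p = 0.0216).

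In complex V all 17 differences were above 0, from 0.08 to 0.47, with a median of 0.18 that became 0.05 after quantile normalization and 0.20 without normoxia array 2. The 5 genes of the catalytic F1 part ran from 0.12 to 0.47, with a median of 0.29, and 2 of them were called. Of all genes 8.93% were called higher, and 18.8% of those in the upper 2 level bins, where these 5 lay. After quantile normalization the F1 differences ran from -0.04 to 0.34, and 0 of the 17 complex V genes were called. Atp5e, the small epsilon subunit of the F1 stalk, read 10.02, 9.97, 9.42, 9.57 and 9.93 in normoxia and 10.22, 10.57, 10.24, 10.16 and 10.07 in hypoxia. The groups did not overlap, and normoxia arrays 3 and 4 were the lowest. The difference was 0.47 (SE 0.13, 1.39-fold, limma adjusted p = 0.0316), the largest of all 86 members. The suffix of its name marks the probe set as one that may detect related transcripts. The call was lost after quantile normalization (0.34, adjusted p = 0.0542) and without any single one of normoxia arrays 3 and 4 or hypoxia arrays 1, 2 and 3, where the difference was 0.38 to 0.48 and the adjusted p 0.0628 to 0.085.

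Atp5a1, the alpha subunit of F1, read 12.17, 11.91, 11.88, 12.07 and 12.27 in normoxia and 12.39, 12.43, 12.53, 12.24 and 12.22 in hypoxia. Normoxia array 5 lay above the lowest hypoxia readings. The difference was 0.30 (SE 0.09, 1.23-fold, limma adjusted p = 0.045). The call was lost after quantile normalization (0.14, adjusted p = 0.197) and without any single one of normoxia arrays 2, 3 and 4 or hypoxia arrays 1 to 4, where the difference was 0.26 to 0.33 and the adjusted p 0.0534 to 0.113. Its other 2 probe sets gave 0.17 (SE 0.09) and -0.22 (SE 0.15), the latter from a dim probe set, and the mean over the gene's probe sets was 0.08 (adjusted p = 0.513).

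Atp5b, the catalytic beta subunit, was close behind at 0.29 (SE 0.09, limma adjusted p = 0.0592), with Atp5c1 (gamma) at 0.21 and Atp5d (delta) at 0.12. The Atp5g1, Atp5g2 and Atp5g3 genes, which encode the same c subunit of the membrane ring, were at 0.15, 0.18 and 0.18. The 9 stalk and membrane subunits ran from 0.08 to 0.28, with Atp5o, the subunit that confers oligomycin sensitivity, at 0.28 (SE 0.11, limma adjusted p = 0.0949).

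Where a gene had further probe sets, these gave the same picture in part. Of 74 other probe sets of the members, 56 had the sign of the one used, 5 were called higher and 0 lower by limma (8.5% and 3.43% of all probe sets), and their median was 0.13. The 5 belonged to Ndufb2, Ndufs8 and Atp5pb. Ndufs8 thus had 3 probe sets called that were not the one used, which gave 0.25 (SE 0.11, limma adjusted p = 0.13). The 3 gave 0.45, 0.39 and 0.38 (limma adjusted p = 0.0241, 0.0241 and 0.0482). The first 2 of them were also called after quantile normalization (0.30 and 0.34, adjusted p = 0.0495 and 0.0343). Its remaining probe sets gave 0.29 and -0.06. The suffix of the one used, like that of the third called, marks a probe set that may cross-hybridise.

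Genes that build or surround the chain were read from 5 further lists, by the same test and against the same background of 8.93% higher and 3.6% lower. Of 30 measured assembly factors outside the symbol rule, 1 rose and 1 fell, with a median of 0.10 (0.06 after quantile normalization). Coa5, a complex IV assembly factor, rose by 0.32 (SE 0.08, limma adjusted p = 0.0199), and Timmdc1, a complex I assembly factor, fell by 0.28 (SE 0.06, limma adjusted p = 0.019). The groups of neither gene overlapped, and the call of Timmdc1 held with any one array left out (-0.32 to -0.25, adjusted p 0.019 to 0.0495). Of 17 regulators of mitochondrial biogenesis 1 was called, with a list median of 0.01 (-0.03 after quantile normalization, where 2 were called lower, Ppargc1b and Sirt1). This was Ppargc1b, a coactivator of oxidative genes, which fell by 0.36 (SE 0.10, limma adjusted p = 0.0407). Its call was lost without any one of normoxia arrays 2, 3 and 4 or hypoxia arrays 1 to 4 (-0.42 to -0.28 over all arrays left out, adjusted p up to 0.0958), and that of Coa5 without normoxia array 3 or 4 (0.28 to 0.36, adjusted p up to 0.0581).

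Of 16 genes of the citric acid cycle and pyruvate dehydrogenase 1 was called, with a list median of 0.13 (0.01 after quantile normalization, where Suclg1 was called higher and Idh3b lower). Suclg1, the alpha subunit of succinyl-CoA ligase, rose by 0.55 (SE 0.14, limma adjusted p = 0.025). Of 13 carriers, porins, uncouplers and the ATP synthase inhibitor 3 were called, all higher, with a list median of 0.05 that turned to -0.08 after quantile normalization. Slc25a5, an ADP/ATP carrier, rose by 0.50 (SE 0.14, limma adjusted p = 0.036), the porin Vdac2 by 0.29 (SE 0.08, adjusted p = 0.0361) and Atpif1, the inhibitor of ATP synthase, by 0.36 (SE 0.09, adjusted p = 0.0265). For Vdac2 and Atpif1 the calls were lost after quantile normalization (0.13, adjusted p = 0.143, and 0.22, adjusted p = 0.0838), and that of Coa5 too (0.16, adjusted p = 0.0907). Without any one of normoxia arrays 3 and 4 or hypoxia arrays 1, 2 and 3 the calls of Suclg1, Slc25a5, Vdac2 and Atpif1 were lost, and without normoxia array 2 those of Suclg1, Slc25a5 and Vdac2, and without hypoxia array 4 that of Slc25a5. With one array left out the differences were 0.47 to 0.63 for Suclg1, 0.40 to 0.61 for Slc25a5, 0.26 to 0.34 for Vdac2 and 0.31 to 0.42 for Atpif1, and their adjusted p reached 0.0687, 0.0954, 0.094 and 0.0709.

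Of 10 genes tied to the mitochondrial response to low oxygen, a list that holds among others the kinase Pdk1 and the mitophagy receptor Bnip3, 1 was called, with a list median of -0.01 (-0.16 after quantile normalization). Quantile normalization called 1 higher and 2 lower, Bnip3 at -0.30 (limma adjusted p = 0.0338, -0.14 and 0.297 in the deposited values) and Mxi1 at -0.23 (adjusted p = 0.0221, -0.07 and 0.523 in the deposited values). The gene called in the deposited values was Fundc1, a mitophagy receptor of the outer membrane, which read 9.1, 8.82, 8.79, 8.77 and 8.99 in normoxia and 9.46, 9.57, 9.48, 9.41 and 9.16 in hypoxia. The groups did not overlap. It rose by 0.52 (SE 0.09, limma adjusted p = 0.00683), and by 0.44 after quantile normalization (adjusted p = 0.00606). With any one array left out the rise was 0.48 to 0.58 (adjusted p 0.00329 to 0.023).

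Some markers of cell types and other tissues were also called by the same test. Beside the counts below, 8.93% of all genes were called higher and 3.6% lower. In the lung list Ptprc, the pan-leukocyte antigen CD45, rose by 0.75 (limma adjusted p = 0.00861), and by 0.60 after quantile normalization (adjusted p = 0.0104). It read 11.22, 10.68, 10.51, 10.86 and 11.25 in normoxia and 11.74, 11.59, 11.44, 11.87 and 11.66 in hypoxia, so the groups did not overlap and normoxia arrays 2, 3 and 4 were lowest. Aqp5, a water channel of alveolar type I cells, rose by 0.53 (adjusted p = 0.00915) and Col1a2, a fibroblast collagen, by 0.45 (adjusted p = 0.00996), also without overlap. After quantile normalization these rises were 0.38 and 0.29 (adjusted p = 0.00664 and 0.00599), and all 3 calls held with any one array left out. The alveolar markers Ager and Cldn18 of the same list were not called (0.18 and 0.16, limma adjusted p = 0.127 and 0.237). Of the 15 lung markers 12 had a difference above 0 and 3 below, with a median of 0.15 (0.03 after quantile normalization). Of 10 measured adipose markers all had a difference below 0 and 1, Retn, was called lower (-0.35, limma adjusted p = 0.0464, and -0.36, adjusted p = 0.0783, without normoxia array 2), with list means of 7.3 to 8.04 in normoxia and 6.8 to 7.43 in hypoxia. Of 5 erythroid markers all were below 0 and 1 was called, Slc4a1, the red cell anion exchanger, at -1.03 (SE 0.15, limma adjusted p = 0.00409), with list means of 7.12 to 7.44 in normoxia and 6.72 to 6.91 in hypoxia. Of 16 skeletal muscle markers 2 were called lower, Casq1 (-1.25, limma adjusted p = 0.0365) and Trdn (-1.18, adjusted p = 0.0302). Without normoxia array 2 they were at -1.04 (adjusted p = 0.0832) and -0.92 (adjusted p = 0.0567). On normoxia arrays 2, 3 and 4 Casq1 read 9.85, 9.78 and 9.43 and Trdn 9.51, 8.85 and 8.7, their highest readings. Myh1 read 12.12, 5.17 and 4.94 on the same arrays. Of 16 cardiac markers 8 had a difference above 0 and 8 below, with a median of -0.03. In this list 1 was called lower, Myoz2, at -0.46 (limma adjusted p = 0.0388). It was at -0.33 without hypoxia array 4 (adjusted p = 0.039) and -0.42 without normoxia array 2 (adjusted p = 0.0895). Retn, Casq1, Trdn and Myoz2 also lost their calls without normoxia array 3 or 4 or hypoxia array 2 or 3 (adjusted p 0.0632 to 0.116), Retn, Casq1 and Trdn without hypoxia array 1 or 4 (0.0583 to 0.0969), and Retn without normoxia array 5 (0.057). The call of Slc4a1 held with any one array left out. Their part in the values of the respiratory chain genes was not tested.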

How the data were processed

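Total RNA of 10 mouse lungs, 5 per group, was hybridised to Affymetrix arrays, 1 per animal. The values used are log2 probe set levels deposited by the authors. The names RMA and affy are listed, with no roles, per the submitters' processing notes. The arrays' standard deviations ran from 1.893 to 2.048, whereas quantile normalization of the probe set levels over all 10 arrays would make them equal. Whether probe intensities were normalized together before they were summarized cannot be told from these values. How the arrays were normalized is therefore uncertain. Quantile normalization and equal spread were therefore run as alternatives. The number of arrays limits the precision.

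Probe sets were named from the annotation table: 20380 had 1 symbol, 691 several and 1555 none. All 22626 probe sets were fitted without a filter with limma 3.58.1 (lmFit, eBayes) in R 4.3.3, two-sided, adjusted by Benjamini-Hochberg over all of them, with a threshold of 0.05. An SE is limma's moderated standard error of the difference. SAM used 100 permutations. Each gene was read from its brightest probe set, and 8 probe sets with several symbols were left out. The scripts were tested on simulated data.

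Values in every array are given for members past the threshold, for the 2 largest absolute differences per complex and for the complex IV isoform pairs. Members and lists were chosen with earlier results of these data known. Replicate numbers were checked for pairing by the correlation of same-numbered arrays' deviations from their group means. These correlations had both signs, but differently numbered arrays were not compared. Whether the numbers pair the samples is therefore unknown, and the main test used no pairing. Alternatives also covered a replicate block, median centring, a filter on low values, other variance models, array weights, another threshold, averaging the probe sets of a gene and leaving out arrays. P-values reflect the spread between animals. Motifs were searched in RefSeq windows.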

Additional observations from a re-analysis of the deposited data

Results flagged for a closer look

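Among the 5 arrays of each group, 46 sets of values were checked for one reading far from the rest, by Dixon's ratio of the gap to the range with a critical value of 0.71. Chance flags about 1 in 20 such sets. Cox4i1 in intermittent hypoxia had a high reading on hypoxia array 2, 12.79 against 12.54 for the next array (ratio 0.773). This array gave the highest reading of 49 of the 86 members. Cox6a2 in intermittent hypoxia had a low reading on hypoxia array 4, 9.93 against 10.37 for the next array (ratio 0.895). The mean of the 16 cardiac markers was also lowest there, at 9.03, with Nppa, the atrial natriuretic peptide, at 7.52 against 8.89 to 10.33 on the other arrays. The part of cardiac transcripts in the Cox6a2 reading was not tested.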

How the results depend on the processing

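The count of members called higher, 5, was also 5 after median centring and with the trend and robust options, although 4 of these 5 were shared in the latter. It was 18 with SAM, 2 with the replicate block, 1 after quantile normalization, 3 at equal spread, 10 over the brighter probe sets, those with a mean no lower than the median (12.2% of 82 members tested, against 16.2% of 7223 genes), 12 with array weights, 13 at an adjusted p below 0.10 and 0 without normoxia arrays 2, 3 and 4 together. With all probe sets of a gene averaged it was again 5, Ndufb2, Ndufb5, Ndufb6, Sdhc and Atp5e, 3 of them shared. With one array left out it ran from 0 to 19. The count called lower, 0, was 1 with SAM, after quantile normalization, at equal spread, with array weights, at an adjusted p below 0.10 and with averaged probe sets, each time Cox8c, and ran from 0 to 1 with one array left out. The member median of 0.13 was -0.01 after quantile normalization, 0.01 without normoxia arrays 2, 3 and 4 together, and 0.09 to 0.16 with one array left out. Over all genes, 1107 higher and 446 lower calls became 720 and 591 after quantile normalization, 888 and 544 at equal spread, 2186 and 1320 with SAM, 699 and 261 with the replicate block, 1517 and 808 with array weights, 1801 and 1022 at an adjusted p below 0.10, 416 and 146 without normoxia array 4 and 4 and 6 without normoxia arrays 2, 3 and 4 together. Of the differences of the 22 members with values in every array, 0 reversed past the threshold, 44 values under an alternative lost their call, 29 gained one and 18 changed sign without a call on either side.

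The replicate block was a fit with the replicate number as a term. Deviations of same-numbered arrays correlated at 0.0593, 0.223, -0.12, 0.152 and -0.24 for numbers 1 to 5. Differently numbered arrays were not compared, so these values cannot tell whether same-numbered arrays share more than a number. Under the block Ndufb6 and Atp5e were called.

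The 5 arrays per group limit what can be called, and the uneven spread of the arrays bears on all directions given for abundant transcripts. Why the counts moved between settings was not tested, also where a setting leaves out arrays or probe sets. Leaving out arrays for the pathway lists and the markers was added after the data were seen.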
